A study of Mus musculus and Homo sapiens with 8 samples.

Results

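The methionine cycle, transsulfuration and one-carbon genes described here are 10 human genes, chosen by their Ensembl identifiers and read in the HepG2 libraries, out of 60675 rows in the deposited count table. Those of the methionine cycle are MAT1A (ENSG00000151224), MAT2A (ENSG00000168906), AHCY (ENSG00000101444) and GNMT (ENSG00000124713). BHMT (ENSG00000145692) and MTR (ENSG00000116984) belong to remethylation, CBS (ENSG00000160200) and CTH (ENSG00000116761) to transsulfuration, and SHMT2 (ENSG00000182199) and MTHFD2 (ENSG00000065911) to mitochondrial one-carbon metabolism. All 10 were among the 14389 genes that passed the filter on low counts in HepG2 cells. HepG2 is an established line of human liver carcinoma cells. Total RNA was sequenced from 2 libraries of cells kept for 24 h with water (controls 1 and 2) and from 2 libraries of cells kept for 24 h with arsenite, a trivalent form of arsenic that binds thiols (arsenite 1 and 2), all at 25 population doublings. The labels give 5 nM for the arsenite group and repeat that figure for the water group. The 4 libraries of the mouse line NIH3T3 were not used, because the human identifiers do not belong to their values.

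In the methionine cycle, methionine is activated to S-adenosylmethionine, the methyl donor of most cellular methylation. Each methyl transfer leaves S-adenosylhomocysteine, which is split to adenosine and homocysteine. Homocysteine is either methylated back to methionine, with a methyl group from folate or from betaine, or passed through transsulfuration to cysteine, a building block of glutathione. Mitochondrial folate enzymes supply the carbon units that feed folate-dependent methylation and nucleotide synthesis. The liver is the main site of methionine breakdown, and arsenic is methylated there at the expense of S-adenosylmethionine. No sequences are printed, because the sequence tables used here hold no human genes.

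HepG2 libraries held 26965049 to 27481613 counts. Whether the libraries of a group stem from separate cultures is not stated, and the p-values reflect only the spread among these libraries, which may be technical. In edgeR's quasi-likelihood fit each gene's spread came from the trend with abundance alone, so the 2 replicates of a gene carried no weight of their own. Arsenite 1 had the strongest length trend of the 4 libraries: Spearman's rho across genes, between gene length and a library's log2 CPM (CPM being counts scaled to the library total) minus the average of all 4, was -0.33, against 0.21 and 0.12 with water and 0.08 in arsenite 2. A further 23 tested genes with at most 3 counts over both controls and at least 10 in each arsenite library summed to 9 and 7 counts with water and to 1377 and 1144 counts with arsenite; their part in the results below was not tested. Hepatocyte, fibroblast, endothelial and leukocyte marker lists and lists of further pathway genes were not run, because the name tables used here pair no symbol with a human identifier. In bulk RNA, fewer cells of a type and less RNA per cell cannot be told apart.

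AHCY and CBS rose with arsenite, 1.64-fold and 1.68-fold in edgeR's fit, and the other 8 genes did not pass an adjusted p of 0.05. AHCY encodes the hydrolase that removes S-adenosylhomocysteine, and CBS encodes the enzyme that commits homocysteine to transsulfuration. CTH, which encodes the next enzyme after CBS, had the lowest fitted change of the 10, at 1.42-fold lower, and lay just outside the threshold (adjusted p = 0.0504, edgeR, Benjamini-Hochberg). The share of genes called was 20% among these 10 and 30.6% among all genes tested. The order of these shares turned with the setting: without control 1 it was 2 of the 10 genes against 9.46% of all genes, and without arsenite 1 it was 1 of the 10 against 5.98%. It was 2 of the 10 against 13.9% without a filter on low counts and against 17.4% in the test against a fold of 1.2, and 1 of the 10 against 7.24% and 6.9% with the deposited RPKM at pseudocounts of 1 and 0.1. Higher calls made up 11.8% of all genes tested and lower calls 18.8%. Of the 10 genes, 2 were called higher and 0 lower. An unadjusted p under 0.05 was reached by 6 of the 10 genes and by 40.9% of all genes. With scaling to library size alone, 4 of the 10 genes were called, AHCY, CBS, CTH and MTR, against 30.9% of all genes; the split over all genes was then 1132 higher and 3318 lower, in place of 1693 higher and 2704 lower.

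**Figure D1:**
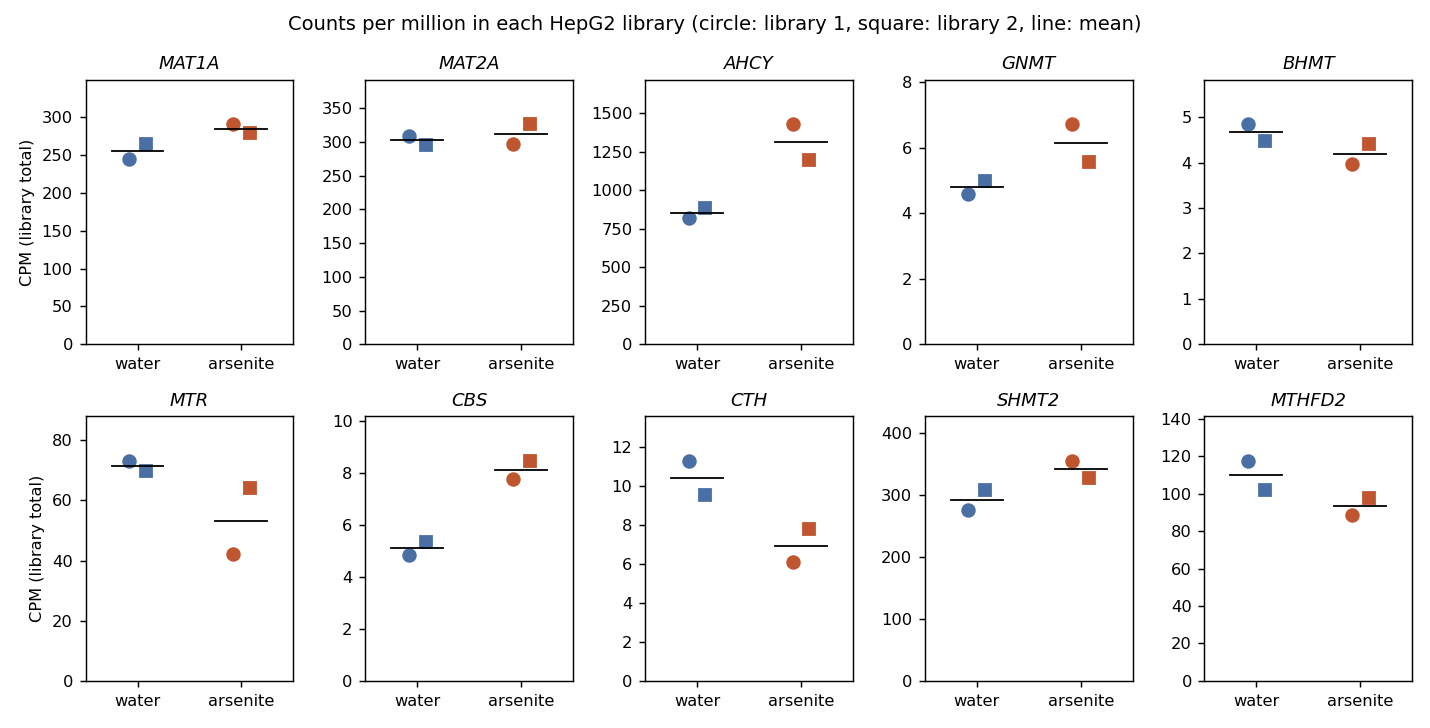
CPM (vertical axis, counts scaled to the library total, from 0) for each of the 10 genes in the 2 water and 2 arsenite HepG2 libraries; points are libraries and lines are group means. AHCY and CBS lie well above the water libraries in both arsenite libraries, MAT2A overlaps, and MTR is low mainly in arsenite 1.

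On library-size CPM the water and arsenite libraries did not overlap for 9 of the 10 genes, 5 of them higher and 4 lower with arsenite. This was so for 66.7% of all genes tested, 25.5% higher and 41.2% lower with arsenite. With TMM scaling it held for 8 of the 10 genes, against 66.8% of all genes; BHMT and MTHFD2 then overlapped and MAT2A did not. The gap between the nearest libraries ranged widely. It was 311 CPM for AHCY, or 35.3% of the nearest control, and 2.41 CPM for CBS, or 45.1% of the nearest control. For BHMT it was 0.053 CPM, or 1.19% of the nearest control, which is below the counting error of that gene. The median fitted log2 fold change was 0.19 over the 10 genes and -0.02 over all genes tested; with scaling to library size alone these medians were 0.10 and -0.10.

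**Figure D2:**
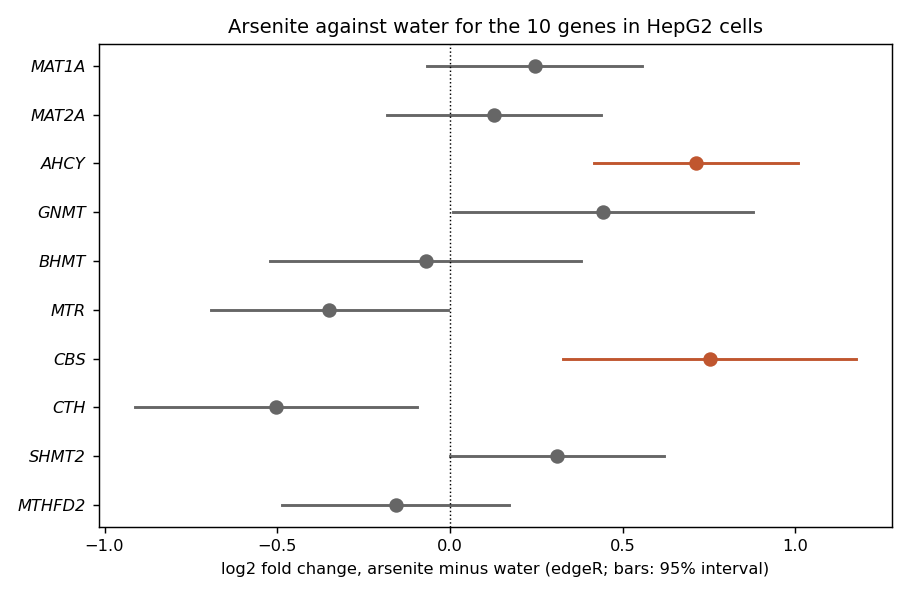
Fitted log2 fold change, arsenite minus water (horizontal axis), for each gene, with its unadjusted 95% interval from edgeR; coloured genes passed an adjusted p of 0.05. The intervals of AHCY and CBS lie furthest from 0, and that of CTH lies below 0 although its adjusted p is 0.0504. Those of GNMT, MTR and SHMT2 also exclude 0, narrowly, although these genes did not pass.

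Of the 4 genes of the methionine cycle itself, only AHCY passed the test. Its level was 816 and 882 CPM with water, against 1429.9 and 1194 CPM with arsenite. Both arsenite libraries lay above both controls, and the 2 arsenite libraries differed from each other more than the 2 controls did. The mean moved from 849 ± 46.6 to 1312 ± 167 CPM (SD, n = 2 each). The fitted log2 fold change was 0.71 (SE 0.15, 95% interval 0.42 to 1.01), with an adjusted p of 4.81e-05 (edgeR, Benjamini-Hochberg), and it lay above that of 96.5% of all genes tested. It was 0.58 without arsenite 1 and 0.90 without arsenite 2, called in both cases. AHCY alone held 43.8% and 45.3% of the counts of the 10 genes with water, against 56.5% and 51.6% with arsenite. The other 9 genes together stood at 1046 and 1066 CPM with water, against 1099.8 and 1121 CPM with arsenite.

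MAT1A and MAT2A encode the catalytic subunits that make S-adenosylmethionine; MAT1A is the form of adult hepatocytes, and MAT2A is the form of most other tissues and of many liver tumours. MAT1A stood at 245 and 265 CPM with water, against 291 and 279 CPM with arsenite. The groups did not overlap, but the gap was 13.96 CPM and the test was not passed: the log2 fold change was 0.25 (SE 0.16, 95% interval -0.07 to 0.56; adjusted p = 0.241, edgeR). MAT2A stood at 309 and 296 CPM with water, against 297 and 327 CPM with arsenite. Its groups overlapped, and its log2 fold change was 0.13 (SE 0.16, 95% interval -0.18 to 0.44; adjusted p = 0.575, edgeR). A change of MAT2A beyond about 1.35-fold upward or below 0.88 of the control downward thus lies outside the interval. MAT2A is known for control by retention of an intron, which a count per gene does not show.

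GNMT encodes glycine N-methyltransferase, a liver enzyme that uses up excess S-adenosylmethionine. It had few reads, 124 and 137 counts with water, against 183 and 152 counts with arsenite. In CPM these were 4.599 and 4.99 against 6.73 and 5.56, so both arsenite libraries were higher. The log2 fold change was 0.44 (SE 0.22, 95% interval 0.01 to 0.88) and did not pass (adjusted p = 0.115, edgeR). Counting error alone was 8.98% of its lowest library.

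Remethylation of homocysteine was represented by MTR, the cobalamin-dependent methionine synthase, and BHMT, which takes the methyl group from betaine and is made mainly in liver and kidney. MTR stood at 73.3 and 69.9 CPM with water, against 42.2 and 64.1 CPM with arsenite. Arsenite 1 was much lower than the other 3 libraries, and arsenite 2 was only a little below the controls. The mean went from 71.6 ± 2.36 to 53.2 ± 15.5 CPM (SD, n = 2 each), and the log2 fold change was -0.35 (SE 0.18, 95% interval -0.69 to -0.01; adjusted p = 0.114, edgeR). Without arsenite 1 it was -0.07 and without arsenite 2 it was -0.61, neither called (adjusted p = 0.903 and 0.061, edgeR). By the length behind the deposited RPKM, MTR is the longest of the 10, at 11374 bp, above 94.0% of the genes tested. After removal of each library's length trend the fitted log2 difference of MTR was -0.20 (adjusted p = 0.316, edgeR), and with scaling to library size alone it was -0.43 and called (adjusted p = 0.044, edgeR).

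BHMT was among the least abundant of the 10 genes, with 131 and 123 counts with water, against 108 and 121 counts with arsenite. In CPM these were 4.86 and 4.48 against 3.97 and 4.42, and control 2 and arsenite 2 were nearly level. The log2 fold change was -0.07 (SE 0.23, 95% interval -0.52 to 0.38; adjusted p = 0.848, edgeR). The interval is wide and includes values from 0.70 to 1.30 times the control.

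Of the transsulfuration pair, CBS rose, while the fitted value of CTH was below 0 and did not pass. CBS had 131 and 147 counts with water, against 211 and 232 counts with arsenite, or 4.86 and 5.35 against 7.76 and 8.48 CPM. Both arsenite libraries were above both controls, and the replicates lay close together in each group. The mean went from 5.10 ± 0.35 to 8.12 ± 0.51 CPM (SD, n = 2 each). The log2 fold change was 0.75 (SE 0.22, 95% interval 0.33 to 1.18; adjusted p = 0.00368, edgeR) and lay above that of 97.1% of all genes tested. Without arsenite 1 it was 0.82, with an adjusted p of 0.064 (edgeR), and leaving out each of the other 3 libraries kept the call. The reference build GRCh38 carries a near-identical copy of CBS, and reads that match both places may be dropped or split by the counting, with options that no source used here states. The level and the change of CBS are therefore uncertain in this respect.

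CTH encodes cystathionine gamma-lyase, which releases cysteine from cystathionine and is known as a target of the stress-induced transcription factor ATF4. It had 305 and 262 counts with water, against 166 and 213 counts with arsenite. In CPM these were 11.3 and 9.53 against 6.10 and 7.78, so both arsenite libraries were lower than both controls, with a gap of 1.75 CPM. The mean went from 10.4 ± 1.26 to 6.94 ± 1.19 CPM (SD, n = 2 each), and the log2 fold change was -0.50 (SE 0.21, 95% interval -0.91 to -0.10; adjusted p = 0.0504, edgeR). Its call depended on the setting. CTH was called lower in limma-voom (adjusted p = 0.049), with a mean CPM of at least 5 (0.030), with the length trend removed (0.009), with scaling to library size alone (0.019), without control 2 (0.017) and in limma on own-total RPKM (0.039). It was not called in DESeq2 (0.129), without a filter on low counts (0.109), with robust spread (0.051), in the test against a fold of 1.2 (0.149), or without control 1 (0.325), arsenite 1 (0.544) or arsenite 2 (0.120), nor with the deposited RPKM.

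SHMT2 and MTHFD2 encode mitochondrial enzymes of folate metabolism. SHMT2 takes a carbon unit from serine, and MTHFD2 oxidises the resulting methylene-folate; both are known from proliferating cells, and both are known ATF4 targets. SHMT2 stood at 276 and 308 CPM with water, against 356 and 327 CPM with arsenite, without overlap. The fitted log2 difference was 0.31 (SE 0.16, 95% interval 0.00 to 0.62; adjusted p = 0.122, edgeR). MTHFD2 stood at 118 and 102 CPM with water, against 88.5 and 97.8 CPM with arsenite. The gap between control 2 and arsenite 2 was 4.30 CPM, smaller than the difference between the controls, and the log2 fold change was -0.16 (SE 0.17, 95% interval -0.49 to 0.17; adjusted p = 0.506, edgeR). The fitted values of the 2 genes thus lay on opposite sides of 0, and neither passed the test.

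Levels between genes were compared per length, as RPKM (counts scaled to gene length and library total) recomputed from the counts with each library's own total and the gene lengths behind the deposited RPKM. AHCY was the most abundant in every library, at 210 and 227 RPKM with water, against 367 and 307 RPKM with arsenite, above 99.3% of the genes tested by mean level. MAT1A (66.3 and 71.8 RPKM), MAT2A (68.8 and 66.0 RPKM) and SHMT2 (57.0 and 63.8 RPKM) formed the next level in the controls. The ranges of MAT1A and MAT2A overlapped there, and SHMT2 was below both. MTHFD2 followed at 24.2 and 21.0 RPKM. MTR (6.44 and 6.15 RPKM), GNMT (4.29 and 4.65 RPKM) and CTH (4.69 and 3.95 RPKM) were lower, and GNMT and CTH overlapped. BHMT, at 1.38 and 1.27 RPKM, and CBS, at 0.716 and 0.788 RPKM, were the least abundant as counted. By its counted level CBS lay above only 25.6% of the genes tested. Reads shared with the near-identical copy of CBS may be missing from its count, so its place in the order is uncertain.

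With arsenite the order of RPKM levels shifted at 3 places. SHMT2, at 73.6 and 67.6 RPKM, overlapped MAT2A, at 66.3 and 72.9 RPKM, and its mean was the higher of the pair. GNMT, at 6.28 and 5.18 RPKM, overlapped MTR, at 3.71 and 5.64 RPKM. CBS, at 1.14 and 1.25 RPKM as counted, overlapped BHMT, at 1.13 and 1.26 RPKM, with the same uncertainty in the level of CBS. The 5 genes with the highest means were the same in both groups, AHCY, MAT1A, MAT2A, SHMT2 and MTHFD2, and these 5 were also in the highest of 5 equal groups of all genes tested, ordered by CPM. In that group 27.1% of genes were called higher and 12.2% lower. The low genes GNMT, BHMT, CBS and CTH stayed under 15 CPM in every library and were in group 2 of the 5, counted from the lowest, where 5.87% of genes were called higher and 22.8% lower.

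**Figure D3:**
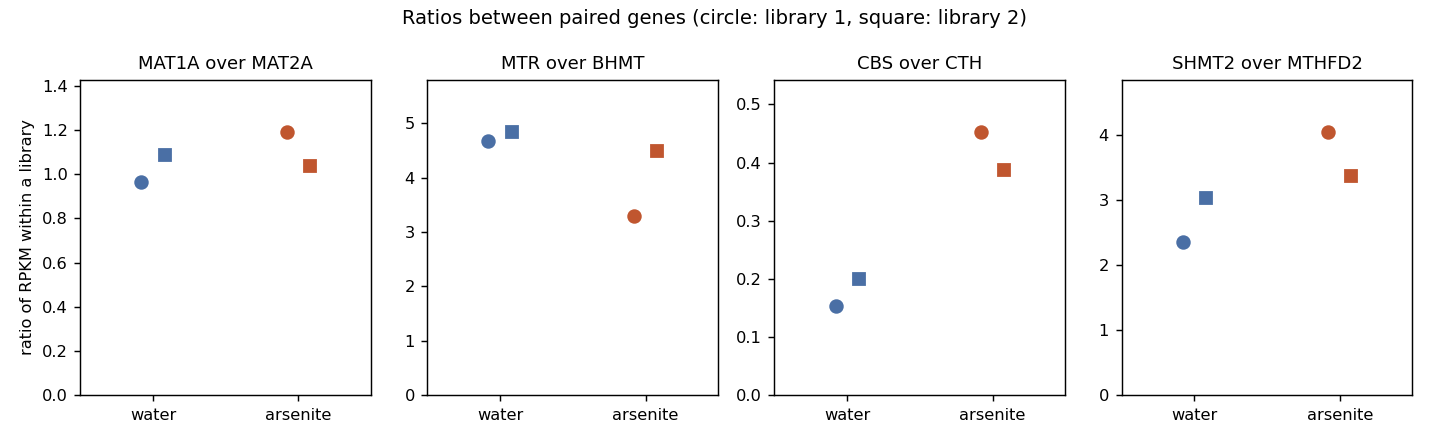
Ratio of the RPKM of 2 genes within each library (vertical axis, from 0, no unit) for 4 pairs in the water and arsenite HepG2 libraries; points are libraries. The CBS over CTH ratio is at 0.153 and 0.200 with water and at 0.452 and 0.387 with arsenite, while the MAT1A over MAT2A ratio overlaps between the groups.

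Ratios between genes of 1 library do not depend on how that library was scaled, but a length trend can still enter them. They are described here without a test, since 2 libraries against 2 cannot go below an exact 2-sided p of 0.333 and the pairs were set with results known. The RPKM ratio of CBS to CTH was 0.153 and 0.200 with water, against 0.452 and 0.387 with arsenite, a mean 2.38 times as high. In raw counts CTH exceeded CBS in both controls, and CBS exceeded CTH in both arsenite libraries. Reads lost or split at the near-identical copy of CBS would enter these ratios and this order. The ratio of SHMT2 to MTHFD2 was 2.36 and 3.04 with water, against 4.05 and 3.37 with arsenite. These did not overlap, but the gap between the nearest libraries was smaller than the spread within either group.

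The ratio of MAT1A to MAT2A, which contrasts the adult hepatocyte form with the form of other tissues, was 0.964 and 1.09 with water, against 1.19 and 1.04 with arsenite, with overlap. AHCY relative to MAT1A went from 3.16 and 3.16 to 4.65 and 4.06. GNMT relative to AHCY was 0.0205 in both controls and 0.0171 and 0.0169 with arsenite, lower in both arsenite libraries. Whether GNMT rose less than AHCY was not tested. Counting error alone was 8.98% of the lowest GNMT library. The unadjusted interval of the GNMT log2 fold change, 0.01 to 0.88, includes the 0.71 fitted for AHCY. CBS relative to AHCY was 0.00341 and 0.00348 with water, against 0.00311 and 0.00408 with arsenite, and these overlapped. MTR relative to BHMT was 4.67 and 4.83 with water, against 3.29 and 4.48 with arsenite, lower mainly in arsenite 1.

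**Figure D4:**
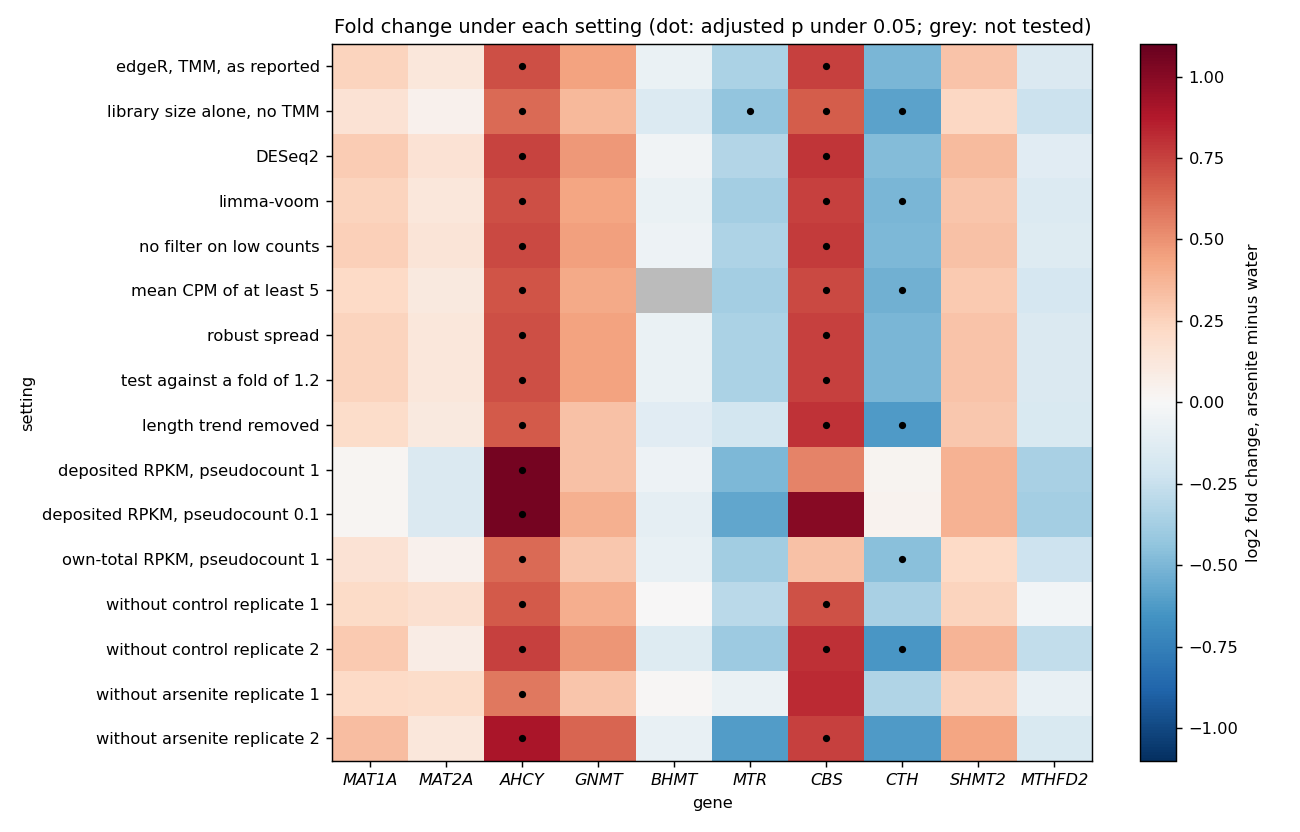
Fitted log2 fold change, arsenite minus water (colour), for each gene (columns) under each setting (rows), with a dot where the adjusted p was under 0.05 and grey where the gene was not tested. AHCY is called under every setting shown, CBS under 12 of 16 and CTH under 6 of 16.

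The deposited RPKM give another picture for several of the 10 genes. Each deposited RPKM value was divided by a total that changes from row to row, so for these genes it was 0.80 to 1.47 times the RPKM recomputed with the library's own total. Of the 40 values, 10 genes in 4 libraries, 9 were within 1% of the recomputed value. AHCY stood at 179 and 190 deposited RPKM with water, against 326 and 449 with arsenite, so that arsenite 2 was the highest library, while in CPM it was arsenite 1. CTH stood at 3.86 and 3.54 deposited RPKM with water, against 3.69 and 3.91 with arsenite, which overlap, while its CPM values did not. MAT2A stood at 99.4 and 80.4 deposited RPKM with water, against 93.3 and 68.7 with arsenite, the reverse of its direction in CPM.

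**Figure D5:**
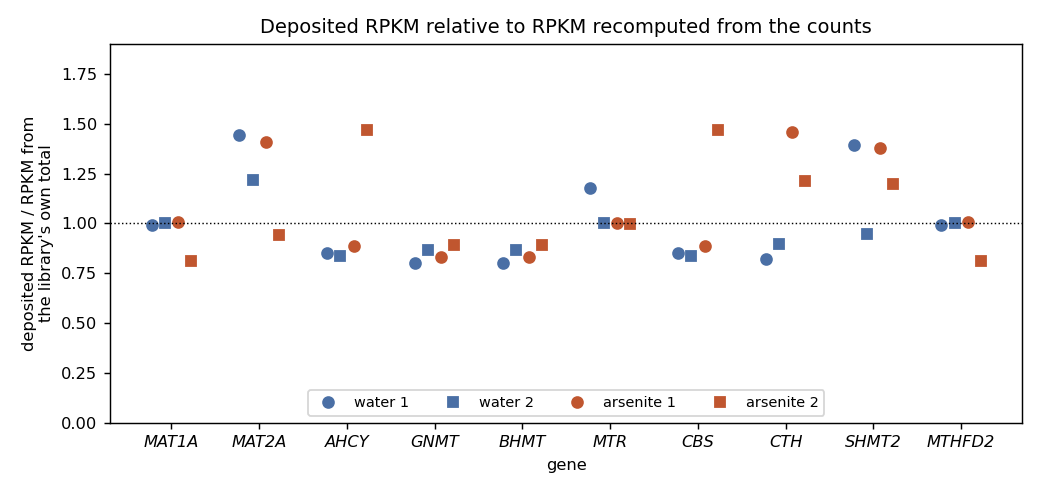
Deposited RPKM divided by RPKM recomputed with the library's own total (vertical axis, from 0, no unit) for each gene (horizontal axis) in the 4 HepG2 libraries; the dotted line is 1. The values run from 0.80 to 1.47, and the highest, in arsenite 2, belong to AHCY and CBS.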

How the data were processed

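RNA was sequenced from 4 HepG2 libraries, 2 per group, from total RNA with a TruSeq kit (the labels' protocols). Tools listed in the submitters' processing notes are STAR 2.4.1d, featureCounts 1.4.6-p4 and bcl2fastq 1.8.4, with the build GRCh38 and no roles. The authors deposited raw counts per gene and RPKM, both under human Ensembl identifiers. In the NIH3T3 columns the last 12946 rows repeat the first, so these columns were left out. The authors' RPKM divisors follow a cycle of 14 rows, of which 8 equal column totals within 0.01%; gene lengths were recovered from the deposited counts and RPKM with this cycle.

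Groups came from the labels' treatment, and replicates were numbered in accession order. Arsenite was compared with water in edgeR 4.0.16 (R 4.3.3) with the default filter, TMM scaling, the 2-sided quasi-likelihood test and Benjamini-Hochberg adjustment over 14389 genes at 0.05. Intervals at 95% are unadjusted. CPM uses library totals unless TMM scaling is named. Alternatives used DESeq2 1.42.0, limma 3.58.1, other scaling, filters and spread, RPKM, a loess length trend (span 0.5), a threshold of 0.10, and each library left out. Fits were tested on simulated data, except those on the deposited RPKM and those with a library left out. The simulated counts had no length trend and far fewer changed genes than were called here. Tables were made in Python 3.11.15 with pandas 2.3.3.

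All 10 genes are named, with names as given with the chosen identifiers. The genes and lists were chosen with earlier results of these data known. Lists of further pathway genes and cell markers, and human coordinates, were not used here.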

Additional observations from a re-analysis of the deposited data

How the results depend on the processing

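Of 159 values of a gene under an alternative setting, 141 kept their direction and their side of the threshold, 4 lost a call (all CBS), 8 gained one (7 CTH, 1 MTR) and 6 reversed, none of them called. The settings counted here include a threshold of 0.10 on the adjusted p of the main fit, which gave 1 of the 7 gains of CTH. The number of the 10 genes called, 2 as reported, was 4 with scaling to library size alone, 1 with the deposited RPKM at either pseudocount, and 1 (without arsenite 1) to 3 (without control 2) when 1 library was left out. The number of all genes called, 4397, was 2498 in the test against a fold of 1.2, 912 and 869 with the deposited RPKM (pseudocounts 1 and 0.1), and 860 (without arsenite 1) to 4504 (without control 2) when 1 library was left out, with 1361 without control 1 and 2923 without arsenite 2; a lone library in these fits is taken to vary as the other group does. AHCY kept its call in all 16 settings, with adjusted p from 8.36e-06 to 0.036. CBS lost it with the deposited RPKM (adjusted p = 0.088 and 0.098, limma), with own-total RPKM (0.073, limma), where a pseudocount of 1 is large against its level, and without arsenite 1 (0.064, edgeR). The log2 fold change reversed for MAT2A, to -0.16 and -0.16, and for CTH, to 0.030 and 0.038, with the deposited RPKM and its changing divisors. For BHMT it ran from -0.146 (without control 2) to 0.0129 (without arsenite 1) when 1 library was left out, and was 0.0076 without control 1. No paired analysis was possible because the labels number no replicates. Depth limits GNMT, BHMT, CBS and CTH, where counting error reaches 9.62% of the lowest library (BHMT). These counting errors leave out the spread between libraries. The 95% intervals of the fitted changes include that spread only as the trend with abundance gives it, not as each gene's own replicates show it.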
